A study of Mus musculus with 12 samples.

Results

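The aryl hydrocarbon receptor genes were chosen by name: the receptor Ahr, its nuclear partner Arnt, its repressor Ahrr, the feedback enzyme Tiparp and the 3 cytochrome P450 genes Cyp1a1, Cyp1a2 and Cyp1b1. These 7 genes stand among 53599 in the count table, and 6 of them, all but Ahrr, were among the 14798 genes that passed the low-count filter. Gene expression was measured by bulk RNA-seq in 12 samples of cultured mouse liver cells, 3 in each of 4 groups: bilCLiP cells in 3D, bilCLiP cells in 2D, hepCLiP cells in 3D and hepCLiP cells in 2D. Per the labels, bilCLiP cells came from biliary epithelial cells and hepCLiP cells from hepatocytes. The 3D cells had been aggregated in microwells over 3 days, without fetal bovine serum, and then floated for 6 to 8 days with oncostatin M at 10 ng/ml, an interleukin 6 family cytokine. The 2D cells grew on collagen with 10% serum. Both cultures shared small hepatocyte medium and the small-molecule inhibitors Y-27632, A83-01 and CHIR99021. The 3D and 2D groups therefore differ in shape, serum, oncostatin M and time together, and these cannot be told apart.

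The bilCLiP samples and hepCLiP replicate 2 carried the RosaYFP reporter, and hepCLiP replicates 1 and 3 carried RosaConfetti. Groups follow the sample titles. The treatment tag of all 3 bilCLiP 3D samples says 2D, and that of hepCLiP 2D replicate 3 says 3D. Levels are given as CPM, read counts relative to the scaled library total. Over all genes tested, Pearson's r of log2 CPM between hepCLiP 2D replicate 3 and hepCLiP 3D was 0.836 to 0.867, against 0.960 and 0.968 for its 2D group mates. Libraries held 16142365 to 21253382 counts. The summed level of 8 hepatocyte markers was 19738 to 46058 CPM in bilCLiP 3D, against 180 to 1043 CPM in bilCLiP 2D, and 45704 to 53738 CPM in hepCLiP 3D, against 342 to 1864 CPM in hepCLiP 2D. The 8 biliary markers summed to 13779 to 33411 CPM in bilCLiP 3D, against 6128 to 10991 CPM in bilCLiP 2D, and to 11398 to 15725 CPM in hepCLiP 3D, against 3691 to 6644 CPM in hepCLiP 2D. In 3D these sums were mostly Spp1, at 13421 to 33046 CPM in bilCLiP and 11103 to 15467 CPM in hepCLiP. The markers did not move as one: in bilCLiP 3D 1 was called higher, Spp1, and 3 lower, Krt19, Cftr and Tspan8. In hepCLiP 3D 1 was called higher and 5 lower. Of all genes tested, 15.8% in bilCLiP and 16.9% in hepCLiP were called higher, and 14.5% and 17.9% lower. Krt19, a keratin of bile duct cells, averaged 5.32 ± 5.88 CPM in bilCLiP 3D and 694 ± 295 CPM in bilCLiP 2D, and 8.74 ± 9.03 CPM in hepCLiP 3D and 860 ± 336 CPM in hepCLiP 2D (SD, n = 3 each), and within each culture the origins overlapped. In such bulk samples, fewer cells of a type and less RNA per cell cannot be told apart.

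The aryl hydrocarbon receptor is a transcription factor that waits in the cytosol, bound to the chaperone Hsp90, until a ligand such as a dioxin, a plant indole or a tryptophan metabolite binds it. It then enters the nucleus, pairs with Arnt and binds DNA elements with the core GCGTG. The Cyp1 enzymes it induces oxidise many of its ligands, and Ahrr and Tiparp damp the receptor in turn. In liver, Cyp1a2 is made by hepatocytes near the central vein without an added ligand, Cyp1a1 is scarce until induced, and Cyp1b1 belongs mostly to non-hepatocyte and extrahepatic cells.

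The start regions of the 3 Cyp1 genes are shown because the results on the receptor's targets below are about these genes. Each window runs from 250 bases before to 50 bases after the start, on the gene's own strand, and is credited to RefSeq on GRCm38.p6. Capitals mark the core GCGTG, or CACGC where it lies on the opposite strand, and the TATA box TATAAA. The windows are chr9:57697363-57697662 (plus strand) for Cyp1a1, chr9:57683606-57683905 (minus strand) for Cyp1a2 and chr17:79715012-79715311 (minus strand) for Cyp1b1.
Cyp1a1: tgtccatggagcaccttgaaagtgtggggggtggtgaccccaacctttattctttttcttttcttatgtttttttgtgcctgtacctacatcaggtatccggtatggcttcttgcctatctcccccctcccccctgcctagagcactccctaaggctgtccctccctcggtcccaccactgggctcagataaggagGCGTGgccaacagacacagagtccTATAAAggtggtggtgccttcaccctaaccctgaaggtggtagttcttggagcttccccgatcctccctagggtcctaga
Cyp1a2: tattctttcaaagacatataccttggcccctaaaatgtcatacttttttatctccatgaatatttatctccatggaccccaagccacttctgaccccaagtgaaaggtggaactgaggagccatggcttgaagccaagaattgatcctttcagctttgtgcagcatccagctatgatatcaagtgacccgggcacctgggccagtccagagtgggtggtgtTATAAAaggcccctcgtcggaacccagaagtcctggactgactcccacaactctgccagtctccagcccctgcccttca
Cyp1b1: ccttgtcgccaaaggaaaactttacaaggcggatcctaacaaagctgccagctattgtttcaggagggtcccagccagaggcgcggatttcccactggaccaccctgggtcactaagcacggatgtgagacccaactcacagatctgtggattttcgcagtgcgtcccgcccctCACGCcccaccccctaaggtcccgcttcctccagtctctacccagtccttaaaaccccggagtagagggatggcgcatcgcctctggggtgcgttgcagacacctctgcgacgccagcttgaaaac

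Cyp1a1 and Cyp1a2 are neighbours on chromosome 9 and are read away from each other. The Cyp1a1 window held 1 core motif, whose first base lay at -54 from the start, and a TATA box at -30. The Cyp1a2 window held a TATA box at -29 and no core motif on either strand. The Cyp1b1 window held 1 core motif on the opposite strand at -76 and no TATA box. The Cyp1a windows had 4 and 3 CpG sites, against 16 in Cyp1b1 and a median of 7 over all 32851 windows. Among the other genes with a window, Arnt had 1 core motif, Tiparp 1 and Ahrr 3, of which 1 lay in the longer TNGCGTG. Both strands were searched for the receptor motifs and the gene's strand for the TATA box, and each longer motif also counts as a core. The core occurred in 32.4% of all windows, the longer motif in 5.07% and the TATA box in 13.6%. These matches are letters in a window and not shown binding sites. Sequence outside the windows was not searched, so a window without the core does not mean a gene without a receptor element.

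Cyp1a2 rose with 3D culture in cells of both origins, Cyp1b1 was lower in 3D and passed the test in hepCLiP, and Arnt rose slightly in both under the scaling used here. In bilCLiP, 2 of the 6 tested genes were called, both higher in 3D, where 30.3% of all 14798 genes were called, 15.8% higher and 14.5% lower. In hepCLiP, 3 of 6 were called, 2 higher and 1 lower, where 34.7% of all genes were called, 16.9% higher and 17.9% lower. Calls are genes with a Benjamini-Hochberg adjusted p under 0.05 in edgeR's quasi-likelihood test, adjusted over all genes tested. With the replicate number as a block, 3 of 6 were called in bilCLiP, where 43.1% of all genes were, and 4 of 6 in hepCLiP, where 47.1% were. Beside such shares these counts are no result about the group as a whole, and the single genes follow by role.

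Ahr itself, the receptor, was read at 101.5, 70.0 and 91.5 CPM in bilCLiP 3D replicates 1, 2 and 3, against 97.5, 112 and 149 CPM in bilCLiP 2D. It had 84.5, 82.4 and 82.8 CPM in hepCLiP 3D, against 90.02, 109 and 94.0 CPM in hepCLiP 2D. The bilCLiP groups overlapped, while all 3 hepCLiP 3D libraries lay below the hepCLiP 2D ones by a small margin. The log2 fold change of 3D over 2D was -0.45 ± 0.177 (SE) in bilCLiP, with an adjusted p of 0.0809, and -0.23 ± 0.177 in hepCLiP, with an adjusted p of 0.340. Neither passed. Without bilCLiP 2D replicate 1, whose Ahr level was the lowest of its group, the bilCLiP value was -0.57 with an adjusted p of 0.0450.

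Arnt, the partner that the receptor needs on DNA, had 49.9, 54.9 and 47.5 CPM in bilCLiP 3D, against 37.9, 41.3 and 40.2 CPM in bilCLiP 2D. It had 67.1, 65.9 and 60.8 CPM in hepCLiP 3D, against 47.3, 45.4 and 44.3 CPM in hepCLiP 2D. No pair of groups overlapped, and the order of levels was hepCLiP 3D, bilCLiP 3D, hepCLiP 2D and bilCLiP 2D, with bilCLiP 3D and hepCLiP 2D separated by less than the spread between replicates. The rise was 1.27-fold in bilCLiP (log2 0.35 ± 0.0998 SE, adjusted p = 0.0222) and 1.42-fold in hepCLiP (log2 0.50 ± 0.0998, adjusted p = 0.00325). Its direction rests on the scaling: with total counts alone the median log2 fold change of all genes was -0.47 in bilCLiP and -0.63 in hepCLiP, against -0.00 and -0.06 with TMM, and Arnt stood at -0.12 and -0.07, above those medians. Under that scaling Ahr, at -0.90 in bilCLiP and -0.80 in hepCLiP, was called lower. The bilCLiP call on Arnt was also lost without bilCLiP 2D replicate 1 (adjusted p = 0.0779), bilCLiP 2D replicate 3 (0.0574) or bilCLiP 3D replicate 2 (0.0894).

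Tiparp, an ADP-ribosyltransferase that the receptor induces and that acts back on it, had 13.2, 31.7 and 26.7 CPM in bilCLiP 3D, against 12.4, 27.2 and 22.8 CPM in bilCLiP 2D. It had 21.2, 24.1 and 28.3 CPM in hepCLiP 3D, against 12.03, 12.7 and 23.6 CPM in hepCLiP 2D. Every 3D library exceeded the 2D library of the same origin and number, while the groups overlapped in both origins. The log2 fold change was 0.20 ± 0.381 (SE) in bilCLiP, with an adjusted p of 0.731, and 0.61 ± 0.384 in hepCLiP, with an adjusted p of 0.246. Same-numbered libraries deviated together, and with the replicate number as a block the hepCLiP value was 0.66 with an adjusted p of 0.0104, which passed. The bilCLiP value with the block was 0.18, with an adjusted p of 0.368. With total counts as the scaling, the bilCLiP value turned to -0.29, above the median of all genes under that scaling.

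Ahrr, the repressor that competes with the receptor for Arnt, was close to absent from these libraries. It had 0 counts in all 3 bilCLiP 3D libraries, against 1, 2 and 3 counts in bilCLiP 2D. It had 1, 1 and 0 counts in hepCLiP 3D, against 4, 4 and 0 counts in hepCLiP 2D. It did not pass the low-count filter. The ratio of the summed, scaled counts of bilCLiP 3D to bilCLiP 2D had an exact 95% interval of 0 to 1.21, and that of hepCLiP 3D to hepCLiP 2D was 0.378, with an interval of 0.0391 to 1.89, both for counting error only. A difference was not detectable at this depth in either origin.

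**Figure D1:**
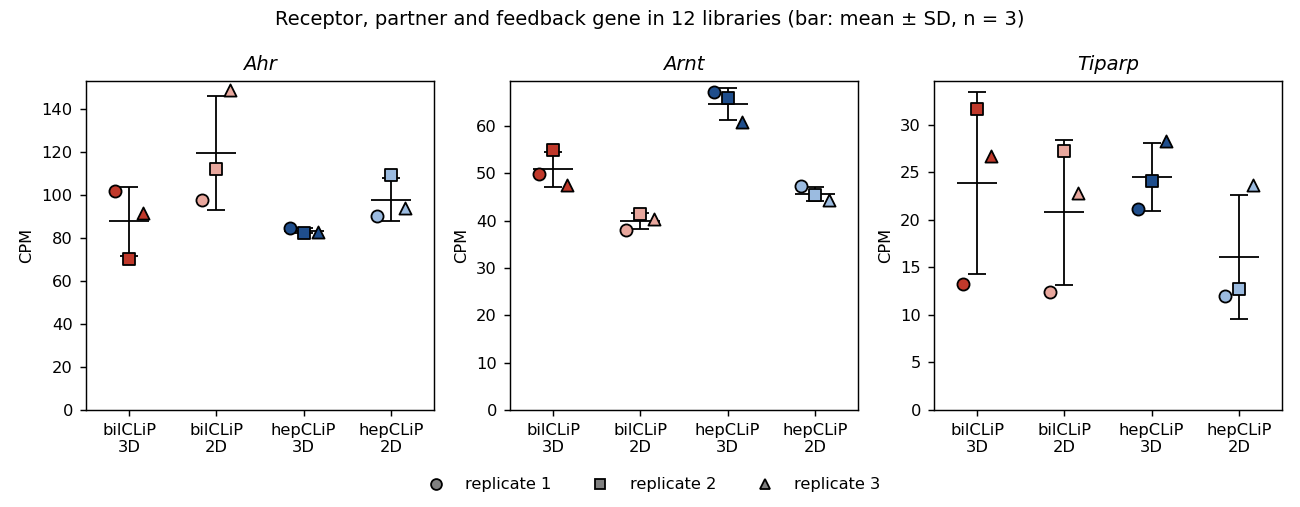
Levels of Ahr, Arnt and Tiparp in CPM (vertical axes, linear) in the 4 groups. Each point is a library, its shape gives the replicate number, and the bars are the mean ± SD of 3 libraries. For Arnt the 3D libraries of each origin lie above all 2D libraries of that origin, while the Tiparp groups overlap.

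Cyp1a2, which oxidises aromatic amines and caffeine, had the largest rise of the 7 genes. It was read at 54.4, 27.0 and 8.12 CPM in bilCLiP 3D, against 0, 0.155 and 0.137 CPM in bilCLiP 2D. In hepCLiP 3D it had 4.40, 15.0 and 8.55 CPM, against 0.370, 0.182 and 2.45 CPM in hepCLiP 2D. In both origins the 3D and 2D libraries did not overlap, and the 3 bilCLiP 2D libraries held only 7 Cyp1a2 counts together. The rise was 284-fold in bilCLiP (log2 8.15 ± 1.28 SE, adjusted p = 0.00113) and 9.35-fold in hepCLiP (log2 3.22 ± 0.977, adjusted p = 0.0257). The ratio of the summed bilCLiP counts, 292, had an exact 95% interval of 141 to 728, for counting error only.

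The rise of Cyp1a2 in hepCLiP no longer passed when hepCLiP 3D replicate 2 (adjusted p = 0.0780), hepCLiP 2D replicate 1 (0.0807) or hepCLiP 2D replicate 2 (0.0706) was left out, and the log2 value was 5.04 without hepCLiP 2D replicate 3, the library with the conflicting tag. Between the RosaYFP libraries of hepCLiP, 1 per culture, the value was 6.31, and no test is read from this single pair. Between 3D and 2D, hepatocyte markers moved with Cyp1a2: 8 of 8 were called higher in 3D in bilCLiP and 7 of 8 in hepCLiP. Of all genes tested, 15.8% and 16.9% were called higher. Within the 3D groups the order differed. In bilCLiP 3D, replicate 1 had the most Cyp1a2 and the lowest marker sum, 19738 CPM, against 46058 and 40402 CPM in replicates 2 and 3. In hepCLiP 3D, replicate 1 had the least Cyp1a2 and the highest sum, 53738 CPM, against 51822 and 45704 CPM. In both 2D groups Cyp1a2, on few counts, followed the order of the sums. The summed ranges of these markers are given above, and their part in the result was not tested.

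Cyp1a2 is a central-vein gene in liver, so lists for both zones were set beside it. Of 11 tested pericentral genes, 4 were called higher and 0 lower in bilCLiP 3D, namely Rgn, Cyp27a1, Gulo and Cyp2e1, and 3 were called higher in hepCLiP 3D, namely Rgn, Gulo and Cyp27a1. Lgr5 and Axin2, which mark Wnt signalling at the central vein, were called lower in hepCLiP 3D, Axin2 being named after its values were seen. Leaving out hepCLiP 3D replicate 1 (adjusted p = 0.0793), hepCLiP 3D replicate 3 (0.0755) or hepCLiP 2D replicate 2 (0.0808) ended the Axin2 call. Of 9 tested periportal genes, 8 were called higher in bilCLiP 3D and 6 in hepCLiP 3D, and none lower. The median log2 fold change of the pericentral list was 0.10 in bilCLiP and -0.36 in hepCLiP, and that of the periportal list 5.80 and 5.91, against -0.00 and -0.06 over all genes tested. The calls of the pericentral list, 4 of 11 and 5 of 11, stand beside 30.3% and 34.7% of all genes and are no result about that list. Cyp2e1, the ethanol-oxidising P450, had 37 counts over the bilCLiP 3D libraries and 0 over the bilCLiP 2D libraries, at least 17.6-fold higher, and its call was lost without any one of the bilCLiP libraries or of replicates 1 and 2 of either hepCLiP group.

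Cyp1a1, the classical sign of receptor activation, stayed low and uneven. It had 4.41, 5.51 and 0.812 CPM in bilCLiP 3D, against 0, 0.894 and 0.729 CPM in bilCLiP 2D. In hepCLiP 3D it had 0.220, 1.28 and 0.0695 CPM, against 0.231, 0.0455 and 5.84 CPM in hepCLiP 2D. The highest Cyp1a1 level of all 12 libraries was thus that of hepCLiP 2D replicate 3, and the 3D and 2D groups overlapped in both origins. The log2 fold change was 2.71 ± 1.59 (SE) in bilCLiP, with an adjusted p of 0.227, and -1.95 ± 1.61 in hepCLiP, with an adjusted p of 0.377. Without hepCLiP 2D replicate 3 the hepCLiP value turned to 1.87, so its sign rests on 1 library.

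The 2 Cyp1a genes can be set against each other within a library, where depth and scaling cancel. Cyp1a1 supplied 7.50%, 16.9% and 9.09% of their joint counts in bilCLiP 3D, against 85.2% and 84.2% in bilCLiP 2D replicates 2 and 3, while bilCLiP 2D replicate 1 had no count of either gene. It supplied 4.76%, 7.86% and 0.806% in hepCLiP 3D, against 38.5%, 20.0% and 70.5% in hepCLiP 2D. Every 3D library lay below every 2D library that had a count. The 2D shares rest on 27, 19, 13, 5 and 166 joint counts, and the share of hepCLiP 2D replicate 2 had an exact 95% interval of 0.505% to 71.6%, for counting error only. These shares are of counts and not per length.

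**Figure D2:**
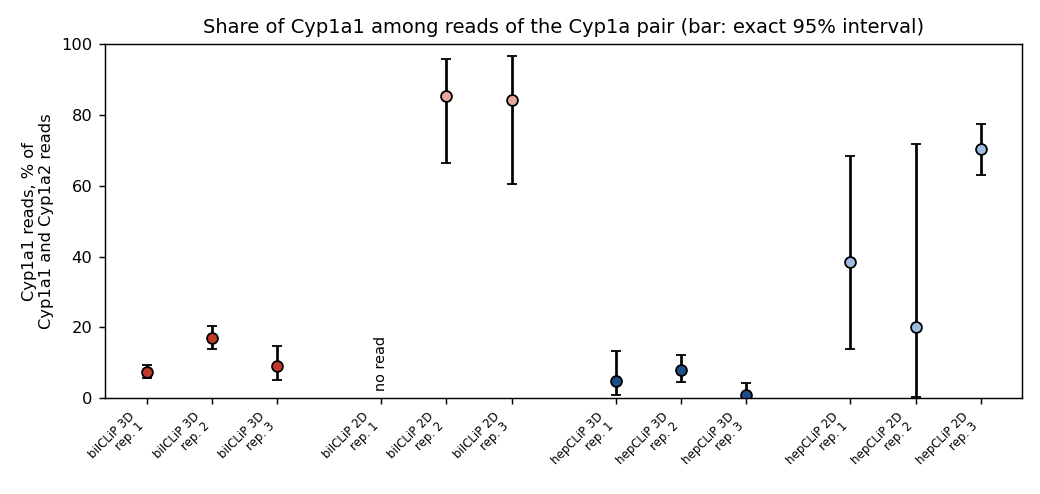
Share of Cyp1a1 among the counts of Cyp1a1 and Cyp1a2 together, in percent (vertical axis), in each of 12 libraries. Points are libraries and bars are exact 95% binomial intervals. The 3D libraries of both origins lie at or below 16.9%, and the 2D libraries with counts lie at 20.0% or above.

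Reads from Cyp1a1 and Cyp1a2 could in part be confused, since their reference transcripts share an identical run of 137 bases and 94 of the 1963 stretches of 50 bases in Cyp1a2. Neither shares such a stretch with Cyp1b1. Libraries high in one were often high in the other within their group: the deviations of Cyp1a1 and Cyp1a2 from their group means correlated at 0.817 over the 12 libraries, which share depth and reads with the pair. This value is a description.

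Cyp1b1, a P450 that oxidises oestrogens and polycyclic hydrocarbons, went the other way. It had 16.3, 2.99 and 9.05 CPM in bilCLiP 3D, against 39.3, 18.9 and 71.4 CPM in bilCLiP 2D. In hepCLiP 3D it had 8.64, 0.497 and 3.13 CPM, against 25.1, 12.4 and 67.9 CPM in hepCLiP 2D. The 3D libraries lay below all 2D libraries of their origin, and in each of the 4 groups replicate 2 was the lowest. It fell 8.59-fold in hepCLiP 3D (log2 -3.10 ± 0.978 SE, adjusted p = 0.0306). In bilCLiP the log2 fold change was -2.19 ± 0.928 with an adjusted p of 0.0988, which did not pass, and with the replicate block it was -2.28 with an adjusted p of 0.0241, which did.

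The fall of Cyp1b1 in hepCLiP no longer passed when hepCLiP 3D replicate 2 (adjusted p = 0.0722), hepCLiP 3D replicate 3 (0.0910) or hepCLiP 2D replicate 3 (0.119, log2 -2.20) was left out, nor in a fit of the hepCLiP groups alone (0.0567). Of the cell type lists that could hold Cyp1b1, 11 fibroblast and stellate markers summed to 24.6 to 39.7 CPM in bilCLiP 3D, against 3.49 to 4.78 CPM in bilCLiP 2D. They summed to 6.32 to 291 CPM in hepCLiP 3D, against 1.32 to 9.21 CPM in hepCLiP 2D, ranges that overlap. In each 3D group only 2 of these markers, Dcn and Reln, averaged at least 1 CPM. The highest sum, in hepCLiP 3D replicate 1, came from Dcn at 282 CPM, and Thy1 was at 0 in all groups but hepCLiP 3D. Of 5 mesothelial markers Msln had the highest level in every library, with 7.97 to 27.8 CPM in bilCLiP 3D, against 545 to 867 CPM in bilCLiP 2D, and 5.42 to 25.8 CPM in hepCLiP 3D, against 333 to 989 CPM in hepCLiP 2D, while Upk3b and Lrrn4 were at 0 in all 3D libraries and at or under 0.185 CPM in 2D. The 7 endothelial markers summed to at most 3.75 CPM in any library and the 7 macrophage and leukocyte markers to at most 19.5 CPM. The part of these cells in the result was not tested.

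**Figure D3:**
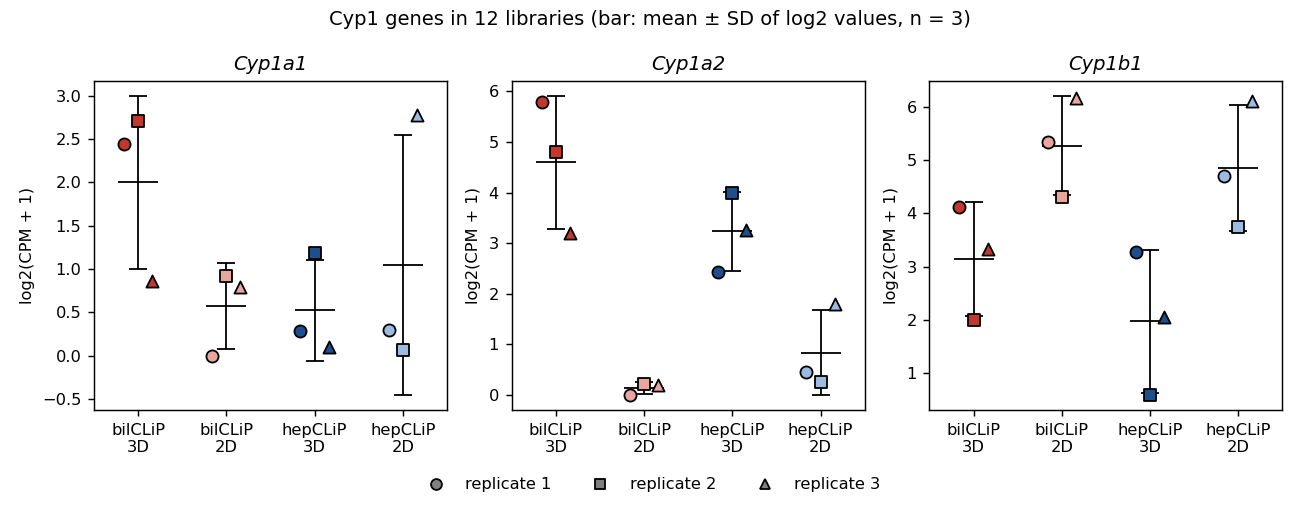
Levels of Cyp1a1, Cyp1a2 and Cyp1b1 as log2(CPM + 1) (vertical axes, log scale) in the 4 groups. Each point is a library, its shape gives the replicate number, and the bars are the mean ± SD of the 3 log2 values. Cyp1a2 is higher and Cyp1b1 lower in every 3D library than in every 2D library of that origin, and Cyp1a1 overlaps.

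Per length, Ahr had the highest mean of the 7 genes in every group but bilCLiP 3D, where Cyp1a2 had. On a scale of CPM per kilobase of exon, Ahr averaged 14.2 ± 2.61 in bilCLiP 3D, 19.4 ± 4.30 in bilCLiP 2D, 13.5 ± 0.187 in hepCLiP 3D and 15.8 ± 1.62 in hepCLiP 2D (SD, n = 3 each). Arnt averaged 6.34, 4.97, 8.07 and 5.70 CPM per kilobase in the same order of groups. Cyp1a2 averaged 14.8 ± 11.6 CPM per kilobase in bilCLiP 3D and 0.0484 ± 0.0422 in bilCLiP 2D, and 4.62 ± 2.65 in hepCLiP 3D and 0.497 ± 0.625 in hepCLiP 2D. In bilCLiP 3D the means of Ahr and Cyp1a2 differed by less than the spread of Cyp1a2 between libraries. Cyp1b1 averaged 1.62 ± 1.14 CPM per kilobase in bilCLiP 3D and 7.40 ± 4.53 in bilCLiP 2D, and 0.700 ± 0.712 in hepCLiP 3D and 6.01 ± 4.99 in hepCLiP 2D. The most abundant Cyp1 gene per length was thus Cyp1a2 in both 3D groups and Cyp1b1 in both 2D groups.

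**Figure D4:**
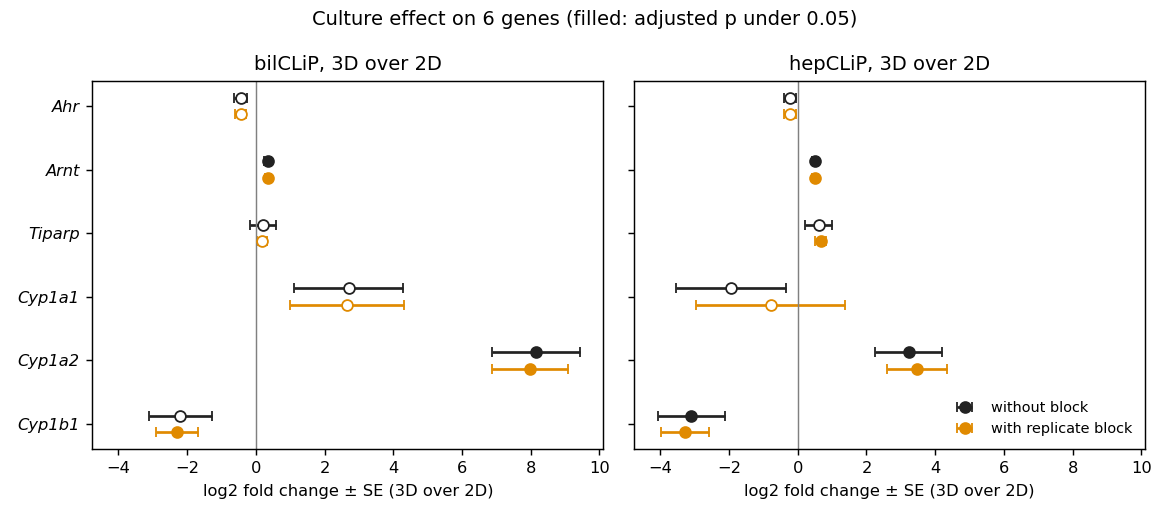
Log2 fold change of 3D over 2D (horizontal axis) with its SE for the 6 tested genes, in bilCLiP and in hepCLiP. Black marks are the fit without and orange marks the fit with the replicate number as a block, and filled marks have an adjusted p under 0.05. Cyp1a2 and Arnt are filled in both origins and both fits, and Tiparp in hepCLiP and Cyp1b1 in bilCLiP are filled with the block.

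Origin was compared within each culture. In 3D, 0 of the 6 genes were called between bilCLiP and hepCLiP, where 0.101% of all genes were called. An unadjusted p under 0.05 was seen for 1 of the 6, Arnt, and for 2461 of all 14798 genes. In 2D, 0 of 6 were called, where 0.135% of all genes were called. Here 1 of the 6, Cyp1a2, and 2146 of all genes had an unadjusted p under 0.05. Beside such numbers these single genes are no result about the group. Arnt was lower in bilCLiP 3D than in hepCLiP 3D in all libraries (log2 fold change -0.35 ± 0.0998 SE, adjusted p = 0.173). DESeq2, which called 577 genes in 3D against 15 by edgeR, called it (adjusted p = 0.0207). Cyp1a2 had a log2 fold change of -3.25 ± 1.24 for bilCLiP 2D over hepCLiP 2D (adjusted p = 0.278). DESeq2, which called 459 genes in 2D against 20 by edgeR, called it (adjusted p = 0.0464). No gene at all was called by edgeR on the difference between the culture effects, 0.0% of 14798, with 532 at an unadjusted p under 0.05, 12 called by DESeq2 and 0 by limma. For Cyp1a2 the culture effect in bilCLiP exceeded that in hepCLiP by 4.93 ± 1.53 on the log2 scale, with an unadjusted p of 0.00835 and an adjusted p of 1.00, so the larger rise in bilCLiP was not shown to differ from that in hepCLiP.

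The receptor's wider circle gave a mixed picture. Of 12 tested genes of the receptor complex, its partners and coactivators, 4 were called higher and 3 lower in bilCLiP 3D, and 3 higher and 3 lower in hepCLiP 3D, where 30.3% and 34.7% of all genes were called. With the replicate block 4 were higher and 5 lower in hepCLiP, where 47.1% of all genes were called. Their median log2 fold change was -0.12 in bilCLiP and -0.01 in hepCLiP, against -0.00 and -0.06 over all genes tested. Nrip1, a corepressor of nuclear receptors, fell to 15.6 ± 1.495 CPM in bilCLiP 3D, against 63.0 ± 1.90 CPM in bilCLiP 2D, and to 20.2 ± 3.12 CPM in hepCLiP 3D, against 71.2 ± 8.52 CPM in hepCLiP 2D (SD, n = 3 each; adjusted p = 1.68e-05 and 2.83e-05). Hsp90aa1, the stress-inducible chaperone that holds the receptor in the cytosol, fell by 1.04 on the log2 scale in bilCLiP and by 1.26 in hepCLiP (adjusted p = 0.00549 and 0.00169). Epas1, the hypoxia factor that also pairs with Arnt, rose by 3.31 ± 0.496 (SE) in bilCLiP and 2.33 ± 0.474 in hepCLiP (adjusted p = 0.000901 and 0.00374), to 139 ± 62.6 CPM in bilCLiP 3D, against 14.1 ± 4.09 CPM in bilCLiP 2D, and to 285 ± 92.7 CPM in hepCLiP 3D, against 56.8 ± 31.5 CPM in hepCLiP 2D.

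Other genes that the receptor is known to induce in some setting split in both directions. Of 15 tested, 7 were called higher and 4 lower in bilCLiP 3D, and 6 higher and 1 lower in hepCLiP 3D, where 30.3% and 34.7% of all genes were called. With the replicate block 8 were higher and 4 lower in bilCLiP, where 43.1% of all genes were called. In hepCLiP that fit gave 6 higher and 3 lower, where 47.1% of all genes were called. Hepatocyte markers, given above, moved with the list, and their part in it was not tested. The median log2 fold change was 1.67 in bilCLiP and 1.31 in hepCLiP, against -0.00 and -0.06 over all genes tested. Among those that rose were Cyp2a5, a liver coumarin hydroxylase, by 7.55 ± 1.81 (SE) in bilCLiP and 9.33 ± 2.13 in hepCLiP, and Cd36, a fatty acid carrier, by 7.48 ± 1.19 and 4.84 ± 0.987 on the log2 scale (adjusted p = 0.0102, 0.00678, 0.00122 and 0.00381). The bilCLiP value of Cyp2a5 was 4.51 without bilCLiP 3D replicate 2, which had 1047 CPM, and its counts are uncertain because near-identical Cyp2a genes exist. Aldh3a1, an aldehyde dehydrogenase of the classical receptor battery, had 0.0659, 0.0574 and 0.522 CPM in bilCLiP 3D, against 0.560, 13.9 and 23.5 CPM in bilCLiP 2D. It fell by 5.82 ± 1.98 on the log2 scale (adjusted p = 0.0466), a call lost without bilCLiP 2D replicate 2 (0.0808), bilCLiP 2D replicate 3 (0.106), any of the bilCLiP 3D libraries (0.0790 to 0.143) or hepCLiP 3D replicate 3 (0.0546).

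P450 enzymes need haem and an electron donor. Of 12 tested genes of these supplies, 4 were called higher and 0 lower in bilCLiP 3D, and 5 higher and 0 lower in hepCLiP 3D, where 15.8% and 16.9% of all genes were called higher and 14.5% and 17.9% lower. The median log2 fold change was 0.43 in bilCLiP and 0.38 in hepCLiP, against -0.00 and -0.06 over all genes tested. Alas1, the rate-limiting enzyme of haem synthesis, rose to 115 ± 33.1 CPM in bilCLiP 3D, against 61.5 ± 4.73 CPM in bilCLiP 2D, and to 198 ± 22.9 CPM in hepCLiP 3D, against 84.2 ± 7.57 CPM in hepCLiP 2D (SD, n = 3 each; adjusted p = 0.00470 and 0.000773). Alad and Urod, later steps of that pathway, rose by 1.47 and 0.95 on the log2 scale in bilCLiP and by 1.09 and 0.83 in hepCLiP. With total counts as the scaling these rises kept their sign, and the calls on Alas1 in bilCLiP (adjusted p = 0.0659) and on Alad (0.101) and Urod (0.143) in hepCLiP were lost. Of the electron donors, Cyb5r3 rose by 0.82 in bilCLiP and 0.98 in hepCLiP, calls also lost under that scaling (0.169 and 0.104). Its bilCLiP call ended too without bilCLiP 2D replicate 1 (adjusted p = 0.05642), bilCLiP 3D replicate 2 (0.05957) or bilCLiP 3D replicate 3 (0.05845). Por was called in neither origin. It had 129, 351 and 174 CPM in bilCLiP 3D, against 87.1, 191 and 172 CPM in bilCLiP 2D. In hepCLiP 3D it had 176, 216 and 226 CPM, against 251, 264 and 197 CPM in hepCLiP 2D.

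Enzymes that turn tryptophan into kynurenine, a ligand of the receptor, and onward formed the next list. Of 7 tested, 4 were called higher in bilCLiP 3D, namely Tdo2, Kynu, Kmo and Kyat1. In hepCLiP 3D 5 were called higher, the same and Ido2, and 0 were called lower in either origin. Of all genes tested, 15.8% in bilCLiP and 16.9% in hepCLiP were called higher, and 14.5% and 17.9% lower. The list's median log2 fold change was 4.08 in bilCLiP and 4.46 in hepCLiP, against -0.00 and -0.06 over all genes tested. Tdo2, the liver's first enzyme of the pathway, had 1.05, 50.2 and 41.6 CPM in bilCLiP 3D, against 0.0861, 0.0777 and 0.0456 CPM in bilCLiP 2D. It had 145, 7.45 and 121 CPM in hepCLiP 3D, against 0.0463, 0.318 and 0.150 CPM in hepCLiP 2D. The groups did not overlap, and the rise was 8.65 ± 1.73 (SE) in bilCLiP and 8.99 ± 1.64 in hepCLiP on the log2 scale (adjusted p = 0.00408 and 0.00208). Kmo and Kynu, which use up kynurenine, rose by 4.86 and 6.82 in bilCLiP and by 5.39 and 4.46 in hepCLiP, with Kynu at 6.93 without hepCLiP 2D replicate 3. Hepatocyte markers, given above, moved with this list too, and their part in it was not tested.

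Kyat3, a kynurenine aminotransferase of the same list, was named after its values were seen, because it was the gene of the list that differed by origin. It had 4.41, 4.59 and 0.986 CPM in bilCLiP 3D, against 209, 231 and 112 CPM in hepCLiP 3D. It had 6.37, 2.06 and 2.05 CPM in bilCLiP 2D, against 93.3, 121 and 48.3 CPM in hepCLiP 2D. Every bilCLiP library lay below every hepCLiP library. The log2 fold change of bilCLiP over hepCLiP was -5.79 ± 0.697 (SE) in 3D and -4.64 ± 0.658 in 2D (adjusted p = 0.0136 and 0.0271), and with the RosaYFP libraries alone, which leave 1 hepCLiP library per culture, the values were -6.12 and -5.12, with no test read from them. The calls were lost in 3D and 2D without the low-count filter (adjusted p = 0.0605 and 0.123) and in fits of the groups compared alone (0.0709 and 0.170). They also ended in 3D without hepCLiP 3D replicate 1 (adjusted p = 0.0713) or any of the bilCLiP 3D libraries (0.0541 to 0.0761), and in 2D without hepCLiP 2D replicate 1 (0.0922), hepCLiP 3D replicate 1 (0.0529), bilCLiP 3D replicate 2 (0.0512), bilCLiP 2D replicate 2 (0.122) or bilCLiP 2D replicate 3 (0.101).

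**Figure D5:**
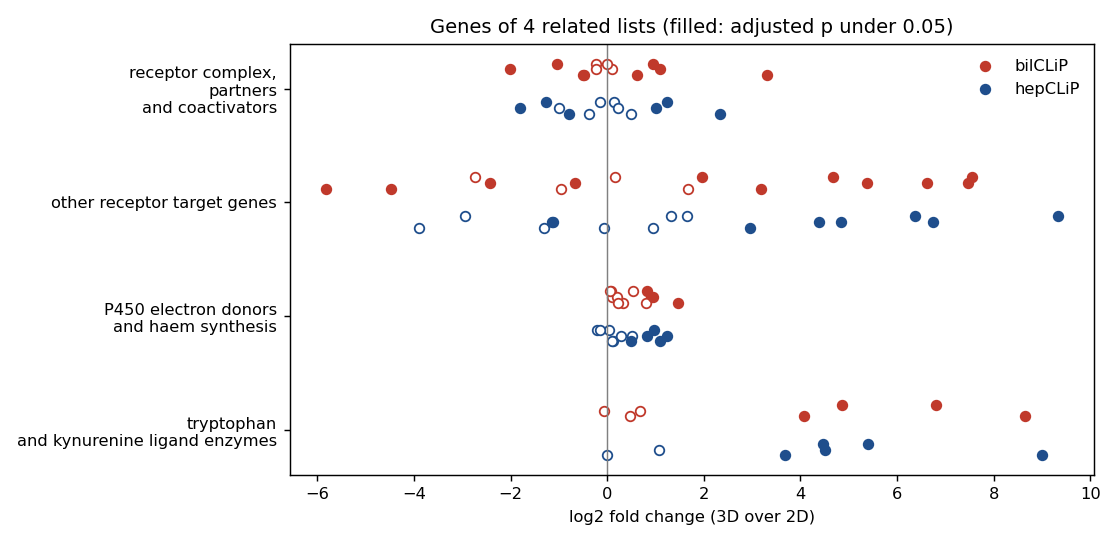
Log2 fold change of 3D over 2D (horizontal axis) for each tested gene of 4 lists around the receptor, in bilCLiP and in hepCLiP. Each point is a gene, and filled points have an adjusted p under 0.05. The tryptophan and kynurenine enzymes that passed all lie to the right of 0, and the other receptor targets lie on both sides.

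Genes whose pattern over the 12 libraries was most like each of the 6 genes were found by Pearson's r of log2(CPM + 1), as a description. Cyp1a2 was most like Atp5h at 0.961, Gstm3 at 0.959 and Wdr13 at 0.956. Of these Gstm3 had the widest range, with 177 CPM in bilCLiP 3D, 0.302 CPM in bilCLiP 2D, 84.4 CPM in hepCLiP 3D and 2.96 CPM in hepCLiP 2D on average. Cyp1b1 was most like Luzp1 at 0.978, Vopp1 at 0.95 and Tuba1a at 0.94, the last a tubulin with 109 and 57.7 CPM in bilCLiP and hepCLiP 3D, against 288 and 289 CPM in 2D. Arnt was most like Atg9a at 0.984, Ahr like the tight junction gene Cldn2 at 0.899, and Tiparp like Prune1 at 0.909. The nearest gene to Cyp1a1, Thap7, reached 0.828, the lowest of the nearest neighbours.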

How the data were processed

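The authors deposited raw counts per gene and normalized values (unit signal), in which each column equals the raw counts divided by one constant per sample. Alignment with STAR 2.7.10b to GRCm39, counting with featureCounts 2.0.1 and the use of DESeq2 are credited to the submitters' processing notes. Which annotation and strand setting they used is not given in the sources used here. The deposited counts entered edgeR 4.0.16 under R 4.3.3 (filterByExpr, TMM, robust quasi-likelihood fit, 4 group means over all 12 samples, 8 residual degrees of freedom, Benjamini-Hochberg adjustment over 14798 genes). CPM uses TMM library sizes, and the standard error is the log2 fold change over the root of F. Every adjusted p comes from edgeR where no tool is named. Alternatives were other scalings, no filter, DESeq2 1.42.0, limma 3.58.1 on log2(value + 1) of the authors' table, subsets of samples, each library left out, and a replicate block.

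Within an origin, 3D and 2D libraries with the same number shared their deviations from the group means (correlations of 0.432 to 0.513, against -0.366 to -0.0283 for different numbers). Taking deviations from means of such small groups itself lowers the values for different numbers. The replicate number was therefore used as a block in an alternative fit, although the labels state no pairing. In hepCLiP the reporter also followed the number. The labels do not say whether replicates were separate animals or cultures, so p-values measure the spread between these samples only. The members, lists and rules for naming genes were chosen with earlier results of these data known: up to 4 called genes per list and culture comparison were eligible, by size of change. Lengths are unions of exons in GENCODE vM21 and sequences are from RefSeq, both on GRCm38, and 6 of the 7 genes had a start window. The fit was tested on simulated data, where it found the large changes and missed a part of the moderate ones. Changes were simulated only in genes with many counts, with the same spread for every gene. The simulation therefore does not cover scarce genes such as Ahrr and Cyp1a1, where large changes may be missed too. A gene that did not pass may still have changed.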

Additional observations from a re-analysis of the deposited data

How the results depend on the processing

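In bilCLiP 3D against 2D, 1 of the 7 genes was called without the low-count filter or with RosaYFP samples only, 1 to 2 when a library was left out, and all called genes were 6763 with total counts as the scaling (1346 higher and 5417 lower, against 2335 and 2150) and 3088 to 4555 with a library left out. In hepCLiP 1 was called without the filter, 0 with RosaYFP samples only and 1 to 3 with a library left out, while all called genes were 7915 (1292 higher and 6623 lower, against 2497 and 2642), 769 with RosaYFP samples only and 4133 to 5227 with a library left out. Between origins in 3D, DESeq2 called 1 of the 7 and 577 genes, limma on the authors' normalized values called 26 genes, the groups alone 3, and left-out libraries 3 to 251. In 2D DESeq2 called 1 of the 7 and 459 genes, limma 38, the groups alone 5, RosaYFP samples only 5, and left-out libraries 6 to 31. On the difference of the culture effects DESeq2 called 12 genes, and left-out libraries gave 0 to 3.

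Signs turned only for values that had not passed, except Arnt with total counts (-0.12 in bilCLiP, -0.074 in hepCLiP). With total counts Tiparp turned to -0.29 in bilCLiP and to 0.086 between origins in 3D. With RosaYFP samples only, which leave 1 hepCLiP library per culture with its spread assumed to be that of the bilCLiP groups, Cyp1a1 turned to 4.63 in hepCLiP, 3.40 between origins in 2D and -1.93 for the difference of culture effects. With libraries left out, log2 values of Cyp1a1 ran from -3.76 to 1.87 in hepCLiP and -2.47 to 1.92 between origins in 2D, Cyp1b1 from -0.27 to 1.20 between origins in 2D, Ahr from -0.054 to 0.21 between origins in 3D, and Tiparp from -0.065 to 0.52 in bilCLiP and -0.30 to 0.24 between origins in 3D. The cause was not tested. Without the filter the calls on Arnt in bilCLiP (adjusted p = 0.190) and on Cyp1a2 (0.0866) and Cyp1b1 (0.115) in hepCLiP were lost. The replicate block changed no call on the 7 genes other than those on Tiparp and Cyp1b1 given above, and called 43.1% of all genes in bilCLiP and 47.1% in hepCLiP. Over the 6 tested genes, 538 of the alternative values kept sign and side of the threshold, 17 lost and 9 gained a call, and 16 changed sign. Over the other named genes 795 kept both and 62 lost a call. Most values of the 6 tested genes belong to comparisons not called in the main fit, which had no call to lose. Among these 6 genes the lost calls were those on Cyp1a2 and Cyp1b1 in hepCLiP and on Arnt in both origins. The pooled numbers therefore do not measure how steady the calls are. Depth limits Ahrr, Cyp1a1 and 2D Cyp1a2, whose counts were few.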
